A study of Mus musculus with 16 samples.

Results

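Nuclear transfer and transcription factor induction, both ways of returning a somatic cell to pluripotency, were set side by side in the mouse lines that had passed tetraploid complementation. The lines compared are 8 of the 16 in the series, with 1 RNA-seq library per line. They are the 4 fully reprogrammed lines made by nuclear transfer, called AN F (AN1, AN9, AN15 and AN20), and the 4 fully reprogrammed lines made by induction, called AI F (AI3, AI7, AI10 and GS32). They were chosen by their names, and no measured value entered the choice. The partially reprogrammed lines, 5 AN P and 3 AI P, serve only for comparison.

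All lines had the 129-M2rtTA background and came from adipocyte progenitor cells (APCs) of mice grown entirely from iPSCs, so AN and AI lines alike carry the doxycycline-inducible factor genes. AN lines grew out of cloned blastocysts, made with enucleated B6D2F1 oocytes, on mouse embryonic fibroblast feeders. AI lines were colonies that formed after doxycycline was given to the APCs. Each line is thus 1 outgrowth or 1 colony. AN1, AI3, AI7 and AI10 were at passage 7 and AN9, AN15 and AN20 at passage 6. GS32 had been derived earlier and was at passage 13. Its source label, like that of the partial line GS9, names another line (GS4), so it was kept under its title, and the main counts are also given without it.

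A nucleus placed in an oocyte is reset by proteins stored in the egg, whereas forced Oct4, Sox2, Klf4 and Myc act on the chromatin of a dividing somatic cell. In tetraploid complementation the host embryo contributes mainly to the placenta, so the pup has to be built by the injected cells. Imprinted genes, which are read from only the maternal or the paternal allele, are commonly examined in such lines because their methylation marks can be lost in culture or during reprogramming.

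Both groups had the transcripts of pluripotent cells. Pou5f1 (Oct4), a core factor of the pluripotent state, was at 789 ± 51.4 FPKM in AN F and 741 ± 88.6 FPKM in AI F (SD, n = 4 each), FPKM being fragments per kilobase of transcript scaled to the mapped total of the library. Fibroblast transcripts were present in every line too, with Acta2, the smooth muscle actin, between 243 and 611 FPKM. The mean of 35 fibroblast genes on the log2(FPKM + 1) scale ran from 4.94 to 5.74 over the AN F lines and from 5.09 to 6.15 over the AI F lines. In a bulk library, fewer cells of a type and less RNA per cell cannot be told apart. The depth, read from the size of the smallest FPKM steps, was about 24400000 to 29000000 reads in AN F and 23400000 to 28700000 in AI F.

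No gene separated the derivations past the threshold. Among 11737 genes with a mean of at least 1 FPKM, limma on log2(FPKM + 1) with a limit of 0.05 on the adjusted p called 0 genes (0%) as higher and 0 genes (0%) as lower in AN F, and the smallest adjusted p was 0.439. With the same limit on the unadjusted p, AN F was higher for 727 genes (6.19% of those tested) and lower for 599 (5.1%). The balance turned with the scaling, to 585 higher and 690 lower with median-ratio scaling, 624 and 673 with quantile normalization, and 686 and 741 with GC and length trends removed. Every AN F line lay above every AI F line for 243 genes (2.07%) and below every AI F line for 132 genes (1.12%). The genes that follow are therefore described by their values, and none is called different.

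The counts moved with single lines. The total at an unadjusted p under 0.05, 1326 genes with all 8 lines, was 2366 without AN1 and 2088 without AI7. It was 408 without AN9, 545 without AN20, 635 without AI10 and 811 without GS32. It was 118 without AN9 and AN20 together. Genes higher and lower were 1252 and 1114 without AN1, 201 and 207 without AN9, and 1048 and 719 without AN15. They were 279 and 266 without AN20, 497 and 429 without AI3, and 1018 and 1070 without AI7. They were 355 and 280 without AI10, and 491 and 320 without GS32. Counts of gene lists with lines left out are to be read beside these. With the mean fibroblast level of each line as a further term the total was 189, and with passage as a term it was 512.

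**Figure D1:**
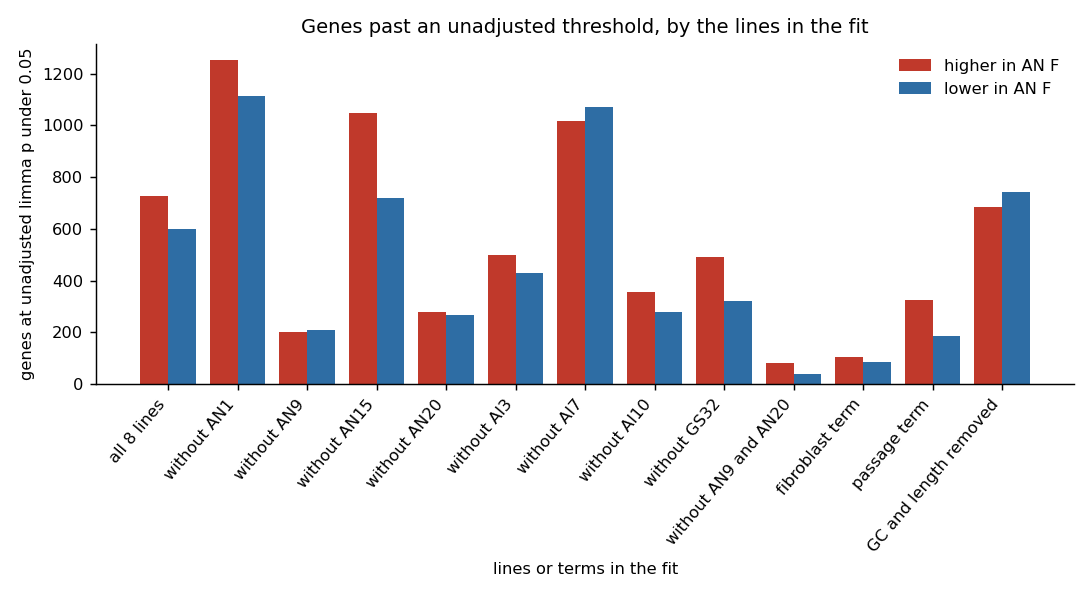
Number of genes at an unadjusted limma p under 0.05 (y axis), higher (red bars) or lower (blue bars) in AN F, for the fit of all 8 lines, for fits without the lines named, and for fits with a further term or correction (x axis). The bars are shortest without AN9 and AN20 together (81 and 37 genes) and the red bar is tallest without AN1 (1252 genes).

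The gene with the smallest p was Mcts2, an imprinted, paternally expressed retrogene derived from Mcts1. It lies at chr2:152512884-152513676 (mm9, the build the authors used, plus strand), within the span of H13 at chr2:152495197-152534406. Retrogenes of this kind carry their imprint at CpG sites around their promoter, so the 250 bases before its start are shown with each CG in capitals (RefSeq, GRCm38.p6, plus strand, chr2:152686898-152687147).
Mcts2 promoter: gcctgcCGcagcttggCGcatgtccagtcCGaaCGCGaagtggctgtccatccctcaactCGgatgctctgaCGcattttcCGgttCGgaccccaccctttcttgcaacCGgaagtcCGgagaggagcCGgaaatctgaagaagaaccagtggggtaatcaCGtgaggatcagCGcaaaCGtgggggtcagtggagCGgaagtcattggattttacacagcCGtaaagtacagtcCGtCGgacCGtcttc
The window holds 20 CG pairs. Of 32851 RefSeq promoter windows of this length 17.9% hold as many or more, and the median is 6. Methylation of these sites was not measured by RNA-seq.

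Mcts2 stood at 26.3, 35.4, 25.7 and 34.3 FPKM in AN1, AN9, AN15 and AN20 and at 19.02, 17.2, 17.3 and 19.9 FPKM in AI3, AI7, AI10 and GS32. Every AN F line lay above every AI F line, with AN9 and AN20 highest. The log2 difference was 0.69 with a standard error of 0.13, a ratio of 1.66, and the adjusted p from limma was 0.439. The exact permutation p was 0.0286, the smallest that 4 against 4 lines allow. Each of the 375 tested genes with groups apart has this value. Since Mcts2 was picked by its p in these lines, the permutation adds no support. The log2 difference was 0.48 when AN9 and AN20 were left out.

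The parent gene and the host gene of Mcts2 were read beside it, both chosen after their values had been seen. Mcts1, a translation regulator on the X chromosome, was at 25.0, 46.0, 20.4 and 40.4 FPKM in AN F and 19.99, 22.1, 19.3 and 24.1 FPKM in AI F. AN9 and AN20 were again the high lines. The genes are near copies, so reads of one may have been counted for the other, and the Mcts2 values of AN9 and AN20 are uncertain for that reason. H13, a signal peptide peptidase, was at 19.1, 13.2, 12.4 and 11.5 FPKM in AN F and 22.7, 17.0, 20.6 and 18.5 FPKM in AI F. Its order was the opposite of that of Mcts2, and AN1 lay inside the AI F range.

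Among the other lines, Mcts2 did not follow the derivation throughout. All 9 AN lines, full and partial, were between 25.7 and 37.8 FPKM, and the 4 AI F lines with the partial line AI9 were between 15.1 and 19.9 FPKM. The partial lines GS4 (passage 17) and GS9 (passage 6), derived earlier as GS32 was, were at 39.2 and 44.3 FPKM, above every AN line.

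Of the 12 genes with the smallest p among those higher in AN F, 11 had groups that did not overlap. They were picked by their p, so their separation is a description. Fabp3, a fatty acid carrier, was at 64.6, 81.4, 99.9 and 82.3 FPKM in AN F and 50.1, 63.7, 44.1 and 51.2 FPKM in AI F. Hmha1 was at 4.46, 3.77, 5.16 and 3.98 FPKM in AN F and 2.14, 3.41, 2.196 and 2.33 FPKM in AI F. For both genes AI7 was the AI F line nearest to AN F, and AN15 was the highest line.

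In several of the 12 genes AN9 and AN20 were the high lines. Gng5, a G protein gamma subunit, was at 131, 235, 117 and 196 FPKM in AN F and 91.2, 95.9, 101 and 85.1 FPKM in AI F. Cenpv, a centromere protein, was at 18.5, 29.2, 16.9 and 24.6 FPKM in AN F and 15.7, 13.9, 12.7 and 10.9 FPKM in AI F. AN1 and AN15 lay just above the AI F lines in both. Swi5, a recombination repair protein, was at 132 to 179 FPKM in AN F and 106 to 128 FPKM in AI F, and Sdccag3 at 22.0 to 30.5 FPKM and 16.8 to 20.7 FPKM. Etohi1, Zfp2 and Gm5860 had the same order, with Gm5860 at 7.91 to 12.9 FPKM in AN F and 6.24 to 6.71 FPKM in AI F. Ccdc3, a secreted protein, was the 1 gene of the 12 that overlapped, since AN1 (1.28 FPKM) lay below AI7 (1.37 FPKM).

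Gm12238 had the largest fitted difference of these genes, on values at the bottom of what a library can show. It is annotated as a processed transcript of 124 bases at chr11:55296208-55296331 (mm9). Its FPKM were 9.34, 8.70, 9.17 and 15.7 in AN F, and it was listed at 0 in AI3, AI7 and GS32 and at 7.93 in AI10. Multiplied by the depth of each line, the values above 0 came to 1, 1, 1, 2 and 1 times the smallest step of this gene, as single reads would. Without AI10 it was the 1 gene past the threshold, with an adjusted p of 5.2e-05 from limma.

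Of the 12 genes with the smallest p among those lower in AN F, 8 had groups that did not overlap. Wnt5a, a ligand of the non-canonical Wnt pathway, was at 5.11, 3.14, 4.87 and 3.67 FPKM in AN F and 8.37, 5.66, 9.26 and 9.13 FPKM in AI F. The log2 difference was -0.81 with a standard error of 0.17. AI7 lay nearest to AN F and AI10 was the highest line.

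Inhba, a subunit of activin A, had the largest difference of the lower genes, -1.10 on the log2 scale. It was at 38.9, 27.9, 58.2 and 31.9 FPKM in AN F and 70.8, 55.2, 134 and 86.0 FPKM in AI F. Vim, the intermediate filament of mesenchymal cells, was at 443, 343, 396 and 332 FPKM in AN F and 631, 432, 631 and 575 FPKM in AI F. Inhba, Vim, A130040M12Rik and Mid1, a microtubule-bound ubiquitin ligase, were the 4 that overlapped, each because AI7 lay below 1 AN F line.

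The others kept a gap. Cryab, a small heat shock chaperone, was at 11.4 to 16.2 FPKM in AN F and 17.8 to 26.5 FPKM in AI F. Shfm1, a small proteasome subunit, was at 246 to 371 FPKM in AN F and 441 to 492 FPKM in AI F. Cklf, a chemokine-like factor, was at 8.62 to 10.8 FPKM in AN F and 12.1 to 15.9 FPKM in AI F. Pcdh7, a protocadherin, was at 2.73 to 3.99 FPKM in AN F and 4.05 to 10.7 FPKM in AI F. Areg, an EGF receptor ligand, and Tnnt2, cardiac troponin T, were under 4 FPKM in all 8 lines. All 24 genes had an adjusted p of 0.439 from limma. With the fibroblast level as a term, 12 of the 12 lower and 12 of the 12 higher genes were still at an unadjusted p under 0.05, a refit of the lines that chose them.

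**Figure D2:**
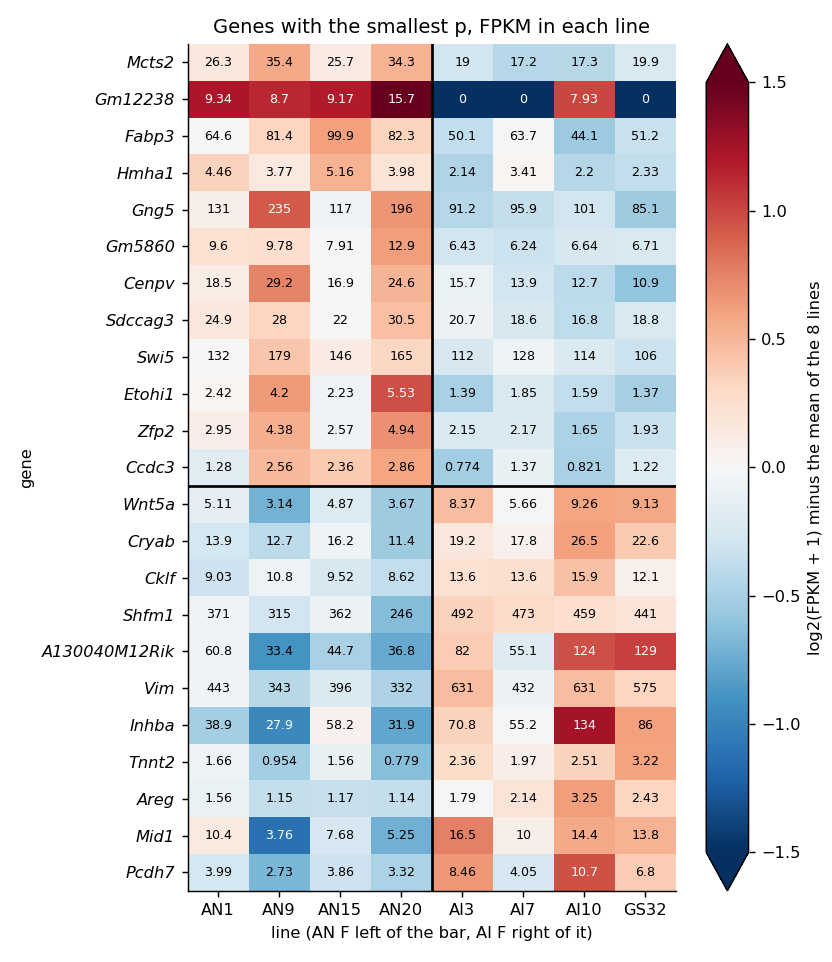
Rows are genes with the smallest p (those higher in AN F above the bar, those lower below it, 1 of the lower ones not shown) and columns are the 8 lines. Numbers are FPKM and colour is log2(FPKM + 1) minus the mean of the 8 lines. AN9 and AN20 have the strongest colours in many rows, and AI7 is the palest AI F line in most of the lower rows.

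The lines did not group by derivation. Pearson correlations over the tested genes ran from 0.956 to 0.994 over the 28 pairs, with medians of 0.982 within AN F, 0.984 within AI F and 0.983 between them. For 5 of the 8 lines the nearest line was of the other derivation. AN15 and AI7 were nearest to each other (r = 0.994), as were AN1 and AI3 (r = 0.992), and GS32 was nearest to AN1 (r = 0.991). AN9 and AN20 were nearest to each other (r = 0.992), and AI10 to GS32 (r = 0.986). These are correlations across genes, which are not independent replicates.

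AN9 and AN20 stood apart from the other AN F lines. On the first principal component, with 47.7% of the variance, they scored 25.8 and 31.8, against -8.1 for AN1 and -1.1 for AN15, and AI10 lay at the other end at -24.8. They also differed in base composition. Across 11389 genes with a coding transcript, a line's deviation from the mean of the 8 lines correlated with transcript GC content at -0.44 in AN9 and -0.55 in AN20, and at 0.01 to 0.38 in the other 6 lines. Genes at an unadjusted p under 0.05 had a median GC content of 44.9% when higher in AN F and 52.6% when lower, beside 50.5% for all genes. With the GC and length trends removed from each line, 1427 genes were under the same limit.

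**Figure D3:**
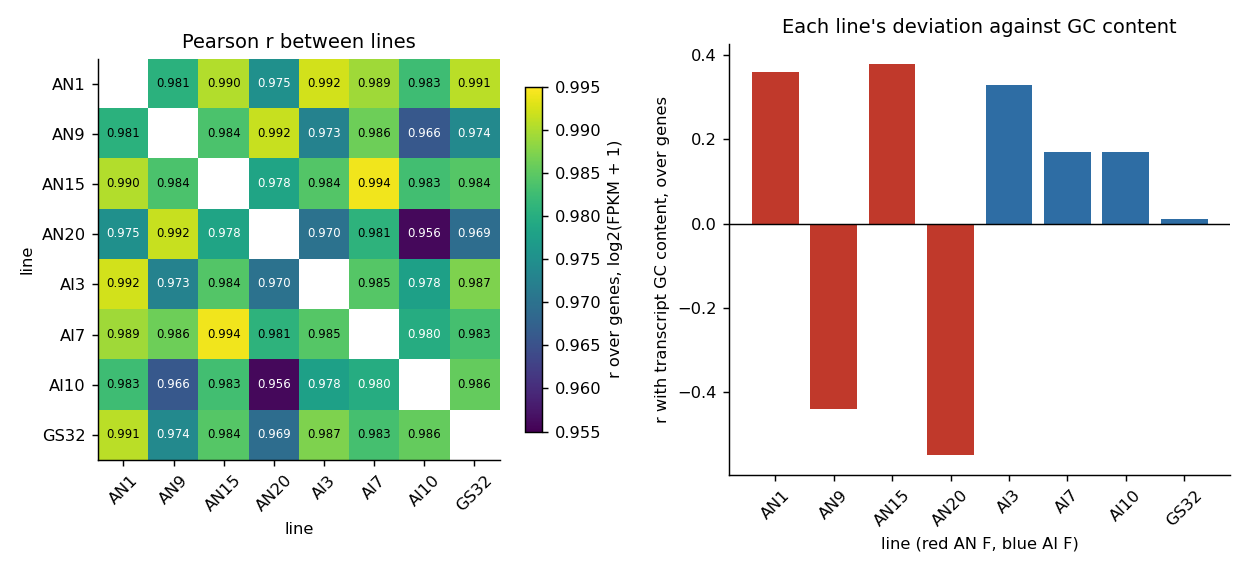
Left, Pearson r over tested genes on log2(FPKM + 1) for each pair of the 8 lines (both axes), given by number and colour. Right, the correlation over genes of each line's deviation from the mean of the 8 lines with transcript GC content (y axis), AN F in red and AI F in blue. AN9 and AN20 have the only negative bars.

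The genes that marked this pair most were named after their values had been seen. LOC624853 was at 2672 and 3394 FPKM in AN9 and AN20 and at 3.98 to 15.0 FPKM in the other 6 lines. Hormad1, a meiotic chromosome axis protein, was at 11 and 10.0 FPKM against 1.33 to 3.04 FPKM. Zfp808, a zinc finger gene, was at 13.7 and 18.7 FPKM against 1.98 to 4.39 FPKM. These genes set 2 AN F lines apart from the other AN F lines as much as from AI F. Crabp1, a retinoic acid carrier, was lower in the pair, at 53 and 37.8 FPKM against 98.7 to 154 FPKM.

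Rpl26 and 2610305D13Rik, named for large differences at an unadjusted p under 0.01, had the same pattern. Rpl26, a ribosomal protein gene, was at 119 and 97.1 FPKM in AN9 and AN20 and at 11.5 to 26.3 FPKM elsewhere, and 2610305D13Rik at 59.0 and 82.7 FPKM against 10.4 to 24.4 FPKM.

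The reprogramming factors were close between groups. Klf4, which also belongs to the naive network, was at 56.7, 68.0, 61.3 and 60.1 FPKM in AN F and 39.6, 55.4, 50.8 and 55.7 FPKM in AI F. The groups did not overlap, and the log2 difference was 0.29 with a standard error of 0.12. The exact permutation p was 0.0286, the value of any gene with groups apart. Pou5f1 had a log2 difference of 0.10 (standard error 0.11), Sox2 of 0.10 (0.10) and Myc of -0.17 (0.12), and all of these overlapped. Gene-level FPKM do not separate transcripts of the inserted copies from those of the endogenous genes.

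Pluripotency genes, the lists of which include Pou5f1, Sox2 and Klf4, were mostly higher in AN F by small amounts. Of 16 core genes, 12 were higher and 2 were at an unadjusted p under 0.05 (beside 6.19% of all genes), with a median of 0.12 on the log2 scale. Dppa5a, an RNA-binding protein of pluripotent cells, was at 961, 1356, 1358 and 1581 FPKM in AN F and 939, 1247, 811 and 1002 FPKM in AI F. Of 18 naive genes, 16 were higher and 3 were under the limit, with a median of 0.18. Esrrb, a nuclear receptor of the naive network, was at 40.7 to 48.7 FPKM in AN F and 30.8 to 43.3 FPKM in AI F. Over all genes tested, 53.7% were higher and the median was 0.02. With single lines left out, 0 to 3 core genes and 0 to 6 naive genes were higher under the limit, beside 201 to 1252 of all genes. With passage as a term, 0 core and 1 naive genes were, beside 325 of all genes. In a fit of all 16 lines 0 core and 0 naive genes were, beside 770 of all genes. The naive median was 0.03 without AN9 and AN20, with 12 of 18 genes higher.

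In the imprinted Dlk1-Dio3 domain the groups overlapped. Meg3 (Gtl2), a maternally expressed non-coding RNA, was at 123, 87.4, 102 and 75.3 FPKM in AN F and 119, 69.8, 86.5 and 92.1 FPKM in AI F, a log2 difference of 0.08 with a standard error of 0.18. Rian, another maternally expressed RNA of the domain, was at 134, 127, 119 and 110 FPKM in AN F and 124, 101, 117 and 113 FPKM in AI F, a difference of 0.11 with a standard error of 0.10. The lines AN1 and AI3 were highest for Meg3 in their groups, and for Rian too. Dlk1, the paternally expressed Notch ligand, was at 1.34 to 2.34 FPKM in AN F and 1.76 to 4.09 FPKM in AI F. Mirg, left out of the test because its symbol starts with Mir, was at 7.03 to 10.8 FPKM in AN F and 6.68 to 11.4 FPKM in AI F. Rtl1, Dio3 and Begain were under a mean of 1 FPKM.

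Grb10, an imprinted adaptor that restrains insulin receptor signalling, was at 46.1, 39.9, 36.8 and 45.1 FPKM in AN F and 54.9, 36.9, 44.9 and 45.6 FPKM in AI F. The log2 difference was -0.11 with a standard error of 0.13, and the exact permutation p was 0.571. The groups overlapped, and AI3 lay above every AN F line.

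Of 16 maternally expressed imprinted genes, 12 were lower in AN F and 4 were at an unadjusted p under 0.05 (beside 5.1% of all genes), with a median of -0.16. That count of 4 was 0 without AN9, without AN20 or without AI10, and 0 with passage or the fibroblast level as a term. H19, a non-coding RNA abundant in fetal tissue, was at 249, 111, 155 and 106 FPKM in AN F and 193, 196, 260 and 304 FPKM in AI F, with AN1 inside the AI F range. Igf2, its paternally expressed neighbour and a growth factor, was at 131, 53.8, 95.4 and 66.9 FPKM in AN F and 123, 76.7, 136 and 194 FPKM in AI F. For both genes AN9 and AN20 were the lowest lines of the 8 and GS32 the highest. Of 18 paternally expressed genes, 10 were higher and 8 lower, with a median of 0.02, and Mcts2 was the 1 gene under the limit.

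Genes that set or keep DNA methylation showed no common direction. Of 17, 9 were higher and 8 lower, and after median-ratio scaling or quantile normalization 7 were higher. Zfp57, which protects methylated imprints, was at 68.7, 95.9, 83.2 and 92.8 FPKM in AN F and 55.2, 79.3, 43.8 and 69.9 FPKM in AI F, with AI7 and GS32 inside the AN F range. Dnmt3b, a de novo methyltransferase, was at 285 FPKM in AI3 and 161 to 195 FPKM in the other 7 lines.

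Fibroblast genes were mostly lower in AN F. Of 35 tested, 32 were lower and 15 were at an unadjusted p under 0.05 (beside 5.1% of all genes), with a median of -0.52. Acta2 was at 432, 243, 348 and 243 FPKM in AN F and 429, 314, 564 and 611 FPKM in AI F. S100a4, a calcium-binding protein, was at 60.3, 43.6, 39.2 and 42.9 FPKM in AN F and 99.4, 47.7, 64.5 and 79.9 FPKM in AI F. In 0 of the 35 genes were the groups free of overlap. Over all genes tested, AN F lay wholly below for 1.12% and wholly above for 2.07%, so 0 of 35 is near those shares. The number under the limit turned on single lines. It was 24 without AN1, 27 without AI7, 3 without AN9, 2 without AN20, 2 without AI10 and 4 without GS32. Of all genes, 1114, 1070, 207, 266, 280 and 320 were lower under the limit in these fits, beside 599 with all lines. In each of them 31 to 35 of the fibroblast genes were lower. With passage as a term 29 were lower and 0 were under it. Without AN9 and AN20, 32 were lower, 0 were under the limit and the median was -0.18.

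Hox genes, which record the position of a somatic cell along the body axis, had the same direction. Of 18 tested, 17 were lower in AN F and 3 were under the limit (beside 5.1% of all genes), with a median of -0.32. There were 11 under it without AN1, 10 without AI7 and 1 without AN9, AN20, AI10 or GS32. Among all genes the lower count moved the same way, to 1114 without AN1, 1070 without AI7 and 207 to 320 in the other fits. Hoxc10 was at 1.94, 1.00, 1.76 and 1.23 FPKM in AN F and 2.37, 1.92, 2.44 and 3.43 FPKM in AI F, where AI7 was the lowest AI F line. With the fibroblast level as a term the median was -0.07 and 0 Hox genes were under the limit. The same term took the lower genes under the limit among all genes from 599 to 86.

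Of 24 genes of APCs, the donor cell type, 15 reached a mean of 1 FPKM. Of these, 11 were lower in AN F and 4 were under the limit (beside 5.1% of all genes), with a median of -0.28. Without AI7, 8 were lower under the limit, and without AN9 or GS32, 1. Of all genes, 1070 without AI7, 207 without AN9 and 320 without GS32 were lower under it, beside 599 with all lines. Dpp4, a surface peptidase named after its values had been seen, was the 1 gene higher under the limit, at 2.03, 3.46, 2.74 and 4.18 FPKM in AN F and 1.72, 2.33, 1.43 and 2.41 FPKM in AI F. Cd24a, a surface protein and the most abundant of the list, was at 83.4, 66.5, 72.4 and 46.5 FPKM in AN F and 61.1, 84.5, 98.6 and 62.8 FPKM in AI F, and the groups overlapped. Fabp4, a fatty acid carrier of fat cells, was at 1.78, 1.14, 1.29 and 0.79 FPKM in AN F and 1.80, 2.14, 2.47 and 3.66 FPKM in AI F. Gsn, an actin-severing protein that fibroblasts express as well, was at 24.5 to 45.8 FPKM in AN F and 29.9 to 59.0 FPKM in AI F. The median of the list was -0.02 without AN9 and AN20.

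Early lineage genes varied more among lines than between derivations. T (Brachyury), the factor of the primitive streak, was at 21.8, 41.9, 92.5 and 14.7 FPKM in AN F and 9.64, 89.0, 174 and 29.8 FPKM in AI F. Krt8, a simple epithelial keratin, was at 46.4, 85.7, 166 and 46.5 FPKM in AN F and 18.7, 128, 180 and 54.7 FPKM in AI F. For both genes AI10, AN15 and AI7 were the highest lines and AI3 the lowest. Of 19 primed and early lineage genes, 18 were lower in AN F, beside 46.3% of all genes. Under the limit were 0 (beside 5.1% of all genes), with 5 without AN1 and 3 without AN15 or GS32. Without AI10, 12 were lower, with a median of -0.12. With passage as a term 19 were lower and 4 were under the limit, beside 187 of all genes tested. The number lower was 8 of 19 without AN9 and AN20. Of 18 primitive endoderm genes 8 reached the minimum. With no minimum, 12 of the 17 above 0 were lower (beside 9381 of all 19064 genes), with a median of -0.14. Of the 8, 7 were lower and 2 were under the limit (beside 46.3% and 5.1% of all genes). The 2 were Lamb1, a laminin chain, and Pdgfra, a growth factor receptor, both also expressed by fibroblasts. That count was 5 without AN1 or AI7 and 0 without AN9 or GS32. Over all genes the lower count was 1114 without AN1, 1070 without AI7, 207 without AN9 and 320 without GS32.

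Genes of the 2-cell-like state, a rare and passing state of such cultures, were near 0 in AN1 and AI3. Zscan4c, the marker of that state, was at 0.18, 1.55, 4.23 and 3.76 FPKM in AN F and 0.22, 2.096, 0.45 and 1.03 FPKM in AI F. Of 20 genes, 6 reached the minimum. It was set on the mean of the AN F and AI F lines together, which a low gene can reach through AN F. With no minimum, 12 of 14 were higher in AN F (beside 50.8% of all genes), with a median of 0.47. All 6 that reached the minimum were higher (beside 53.7% of all genes), with a median of 0.66, and 0 were under the limit (beside 6.19%). Without AN1 that count was 6 of 6, and without AI7 it was 3. Over all genes the higher count was 1252 without AN1 and 1018 without AI7, beside 727 with all lines.

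Zinc finger genes, many of which encode repressors of transposable elements, were mostly higher in AN F. Of 273 with a Zfp symbol, 220 were higher and 54 were at an unadjusted p under 0.05 (beside 6.19% of all genes), with a median of 0.18. Their mean level on the log2(FPKM + 1) scale was 2.51, 2.67, 2.53 and 2.78 in AN F and 2.47, 2.49, 2.33 and 2.45 in AI F, so AN9 and AN20 were highest and AN1 and AN15 lay just above AI7. Single lines moved the 54 to between 20 (without AN9) and 89 (without AN1). The 727 of all genes moved to 201 and 1252 in the same fits. Without AN9 and AN20, 214 of the 273 were higher and 3 were under the limit. With the GC and length trends removed, 206 of 272 were higher and 42 were under it.

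Ribosomal protein genes were also mostly higher. Of 76, 57 were higher (beside 53.7% of all genes) and 25 of these were under the limit (beside 6.19%), with a median of 0.14, and after quantile normalization 46 were higher. Rps19 was at 930, 986, 886 and 908 FPKM in AN F and 801, 729, 713 and 571 FPKM in AI F, with no overlap. Rpl41, the most abundant, was at 5531 to 7978 FPKM in AN F and 6611 to 8174 FPKM in AI F. These genes have processed copies that share their reads, so single values are uncertain. The number under the limit was 10 to 29 with single lines left out, lowest without AN9. Without AN9 and AN20, 60 were higher and 1 of them was under it.

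Of 76 subunits of oxidative phosphorylation, 43 (56.6%) were higher in AN F, close to the 53.7% of all genes, and the median of 0.02 was that of all genes. Under the limit were 9 (11.8%, beside 6.19% of all genes), and 1 without AN9 or 2 without GS32. The number higher was 37 without AN9 and 38 with GC and length trends removed. Atp5d, an ATP synthase subunit, was at 99.8 to 115 FPKM in AN F and 84.1 to 98.4 FPKM in AI F. Of 35 mitosis genes, 29 were higher and 7 were under the limit (beside 6.19% of all genes). That count was 1 without AN9, 2 without AN20 or AI10, 4 without GS32 and 16 without AN15. Of all genes, 201, 279, 355, 491 and 1048 were higher under the limit in these fits, beside 727 with all lines. Bub1, a spindle checkpoint kinase, was at 25.1, 45.6, 27.3 and 47.2 FPKM in AN F and 23.1, 27.5, 21.6 and 22.3 FPKM in AI F, and AN9 and AN20 were again the high lines.

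Of 14 germline genes that DNA methylation keeps silent in somatic cells, 12 were higher in AN F (beside 53.7% of all genes). Of these 4 were under the limit (beside 6.19%), a count of 1 without AN9, AN20 or AI10. That count was 0 with GC and length trends removed. The 14 passed a minimum on the mean of the 8 lines, which a low gene can reach through AN F. With no minimum, 15 of 20 were higher (beside 50.8% of all genes), with a median of 0.17. Dazl, a germ cell RNA-binding protein, was at 0.94, 2.59, 1.29 and 3.04 FPKM in AN F and 0.95, 1.15, 0.74 and 0.83 FPKM in AI F. Without AN9 and AN20 the median of the list went from 0.25 to 0.02. Of 29 polycomb genes 22 were higher and 2 (6.9%) were under the limit, near the 6.19% of all genes. Of 16 heat shock genes 13 were higher and 2 (12.5%) were under it, with 1 to 5 when single lines were left out. For heat shock genes the number higher was 8 of 16 without AN9 and AN20.

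**Figure D4:**
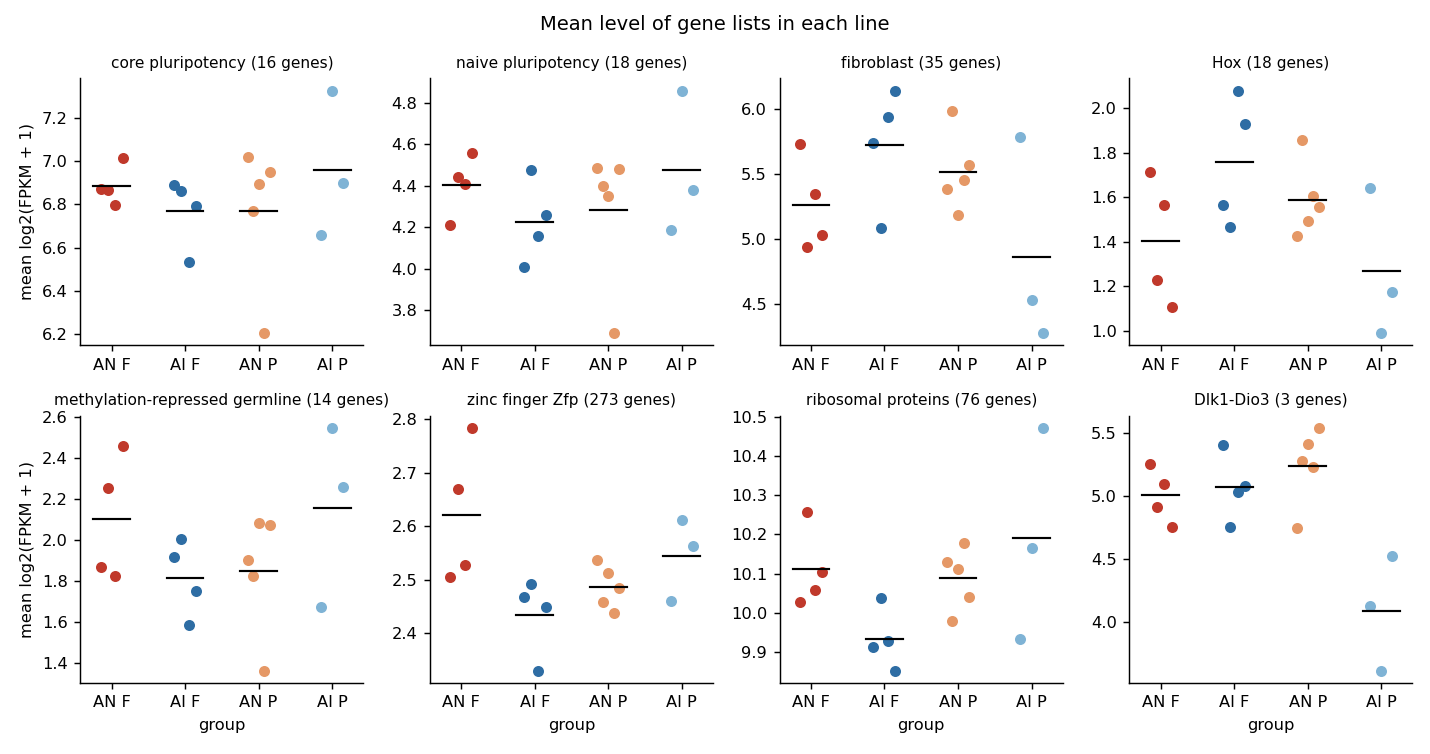
Mean log2(FPKM + 1) of 8 gene lists (y axis, not starting at 0) in each line of the 4 groups (x axis), with a bar at each group's mean. AI F has the higher mean for fibroblast and Hox genes, AN9 and AN20 are the highest of the 16 lines for zinc finger genes, and the AN F and AI F points overlap in the fibroblast and Hox panels.

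Whether the difference between derivations was the same in full and partial lines was tested with an interaction term over all 16 lines. It called 0 genes at an adjusted p under 0.05 and 2056 genes (17.5%) at an unadjusted p under 0.05. Without AI9, 856 genes passed the adjusted threshold. Of the 1326 genes under the unadjusted limit between AN F and AI F, 238 (17.9%) had the same direction between AN P and AI P, beside 32.0% of all genes tested. When AI9 alone stood for AI P, 76.5% had the same direction, beside 57.7% of all genes tested, a value that rests on 1 AI P line. The earlier-derived lines GS4 and GS9 make up the rest of AI P.

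Fibroblast genes showed this turn. They were lower in AN F than in AI F for 32 of 35 genes but higher in AN P than in AI P for 35 of 35, with a median of 0.71. Their mean level was 5.79 in AI9, 4.53 in GS4 and 4.28 in GS9. AI9 was thus within the AI F range, and GS4 and GS9 were below all 8 full lines. GS32, which had also been derived earlier, was the highest of the 8 full lines at 6.15.

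Meg3 and Grb10 had a wider spread in the partial lines than in the full ones. Meg3 was at 69.6 to 141 FPKM in AN P and 27.7 to 53.3 FPKM in AI P, with no overlap. Its interaction had an adjusted p of 0.265 from limma. Grb10 was at 8.89 to 33.0 FPKM in AN P and at 53, 8.28 and 6.60 FPKM in AI9, GS4 and GS9. All partial lines but AI9 were below the lowest full line.

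**Figure D5:**
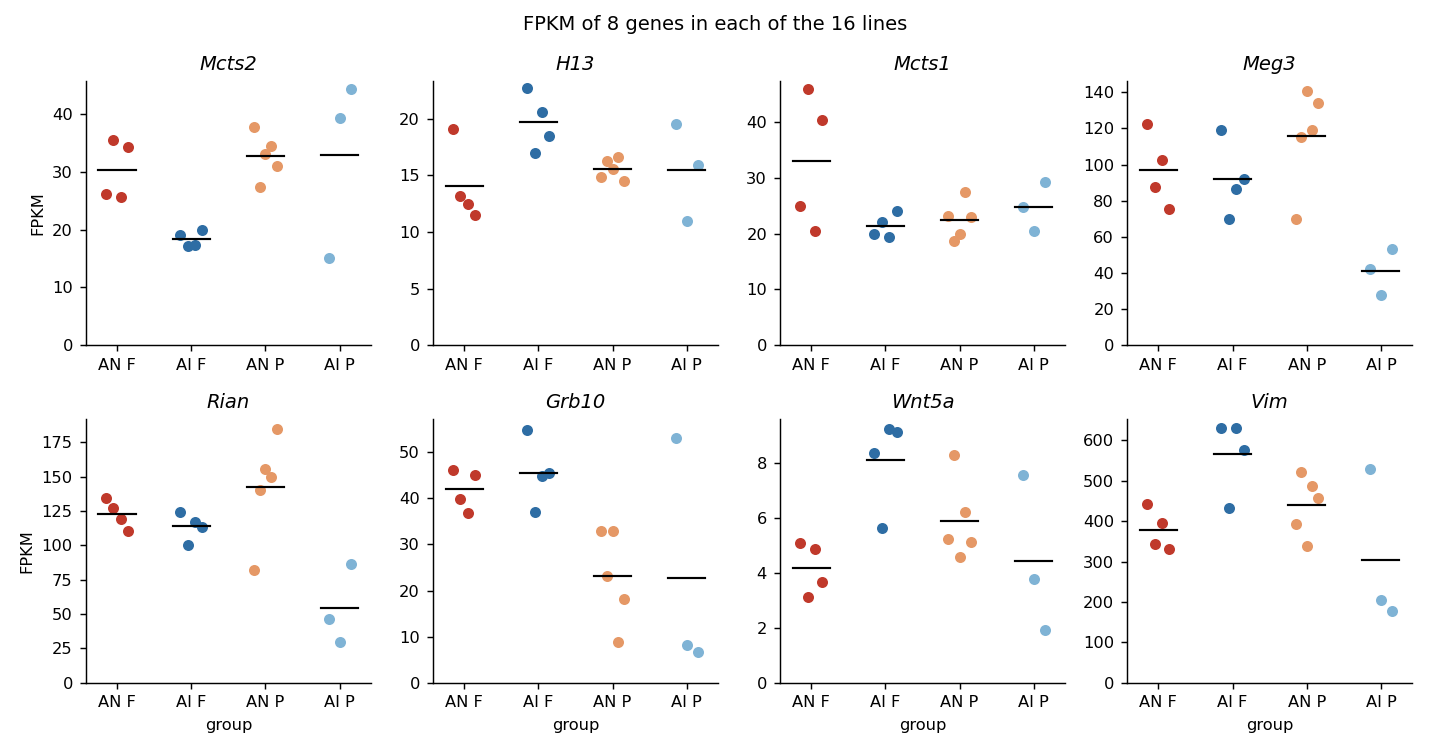
FPKM (y axis, from 0) of 8 genes in each line of the 4 groups (x axis), with a bar at each group's mean. Mcts2 is lowest in AI F and AI9, Meg3 and Grb10 overlap between the full groups, and the 2 high points of Mcts1 in AN F are AN9 and AN20.

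No line stood out by a whole chromosome. The median log2 deviation of a chromosome's genes from the mean of the 8 lines, over 20 chromosomes, stayed between -0.090 (chromosome 19 in AN20) and 0.076 (chromosome 14 in AN9).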

How the data were processed

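Gene-level FPKM of 16 mouse lines were read from the table the authors deposited, 1 column per line, matched by title. Per the labels and the study's methods, the authors aligned single-end RNA-seq reads to mm9 with TopHat2 2.1.0 and computed FPKM with Cufflinks 2.2.1, which scales by transcript length and library total. Of 22552 genes, 724 with small RNA symbols (Mir, Snord, Snora, Scarna, Rnu) were left out, as were genes under a mean of 1 FPKM. log2(FPKM + 1) of 11737 genes was tested with limma 3.58.1 in R 4.3.3 (mean-variance trend, two-sided, Benjamini-Hochberg over all genes, threshold 0.05), and fold changes on this scale understate low genes. The test was checked on simulated data, where 179 of 200 genes changed by 1 on the log2 scale were recovered, with 5 false calls. Genes were drawn independently there, so the check does not cover trends shared across genes, such as that with GC content. Single genes were also tested by exact two-sided permutation (70 arrangements). Depth came from FPKM steps of single-transcript genes, assuming a fragment mean of 200 bases. Positions came from GENCODE vM1 (mm9).

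Genes named were the 12 with the smallest p in each direction, the 3 with the largest change each way at an unadjusted p under 0.01, 2 per list by p and 2 by level, the Dlk1-Dio3 genes, the reprogramming factors and Grb10. Others are marked as chosen later, and 1 gene that the rule names is not reported here. The members and lists were chosen with earlier results of these data known. With 1 library per line, p-values cover differences between lines and libraries together. Alternatives without AN9 and AN20, with the fibroblast term and with GC and length trends removed were added after seeing the data.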

Additional observations from a re-analysis of the deposited data

Results flagged for a closer look

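Each group of 4 full lines was screened for a line far from the other 3 by Dixon's test. Of 210 groups of values screened, 7 (3.33%) passed, and chance passes about 1 in 20. In AN F, Pou5f1 in AN20 was at 712.1 FPKM against 812.8 to 818 FPKM in the other lines. Gm12238 in AN20 was at 15.68 FPKM against 8.7 to 9.335 FPKM, and Areg in AN1 at 1.563 FPKM against 1.14 to 1.172 FPKM. In AI F, Dnmt3b in AI3 was at 284.7 FPKM against 161.4 to 170.6 FPKM, and Gsn in AI7 at 29.94 FPKM against 52.63 to 58.97 FPKM. Eif2s3y, a Y-linked translation factor, was at 19.86 FPKM in GS32 against 36.16 to 37.28 FPKM. Gm12238 was at 7.926 FPKM in AI10 and listed at 0 in the other 3 lines.

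Mir302b, outside the comparison as a small RNA symbol, was the 1 gene past the threshold when such symbols were kept, with an adjusted p of 2.08e-10 from limma. It encodes a member of the miR-302 family of pluripotent cells, whose mature sequences are shown with the seed (bases 2 to 8) in capitals (RefSeq, GRCm38.p6).
mmu-miR-302b-3p: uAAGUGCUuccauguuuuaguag
mmu-miR-302b-5p: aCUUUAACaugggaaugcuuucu
Mir302b was at 125, 117, 123 and 105 FPKM in AN1, AN9, AN15 and AN20, a mean of 117.6 FPKM, and listed at 0 in the 4 AI F lines. Multiplied by depth, each AN F value was 1 times the smallest step of this gene, as a single read would be. AN6 and GS9 were at 2 times that step, and 10 of the 16 lines were listed at 0.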

How the results depend on the processing

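With pseudocount 0.1, other filters, other scalings, no trend, a robust prior or a fit of all 16 lines, 0 genes passed the adjusted threshold. Keeping small RNA symbols gave 1, and an unadjusted threshold gave 727 higher and 599 lower. Genes at an unadjusted p under 0.05 were 325 higher and 187 lower with passage as a term, 81 and 37 without AN9 and AN20, and 103 and 86 with the fibroblast term. Genes with every AN F line below were 87 at a minimum of 5 FPKM, 266 with no filter and 213 with GC and length trends removed. Without AN9 and AN20, 571 lay above and 278 below.

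Leaving out 1 line gave 0 to 1 genes past the threshold, 201 (without AN9) to 1252 (AN1) higher and 207 (AN9) to 1114 (AN1) lower at an unadjusted p under 0.05. Further counts that moved by over 1.5 times were 279 and 266 without AN20, 355 and 280 without AI10, 320 lower without GS32 and 1070 lower without AI7. Groups did not overlap for 260 to 818 genes above and 151 to 824 below, with fewer lines to separate. The interaction gave 0 to 856 genes past the threshold (856 without AI9) and 1124 (without GS9) to 3598 (without AI9) at an unadjusted p under 0.05, with 1125 without AN9, 1180 without AN20 and 1323 without AI10. With AI9 alone, 76.5% of directions were shared. The cause of these moves was not tested.

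The log2 differences that changed sign were each smaller than their standard error with all lines. With passage as a term Krt8 was -0.14 and Krt18 -0.16, and with the fibroblast term -0.17 and -0.13. Fgf8 was 0.021 with GC and length trends removed, and without AN9 and AN20 Fgf8 was 0.32 and Rpl41 0.11. Leaving out 1 line gave ranges of -0.53 to 0.54 for Krt8, -0.30 to 0.41 for Krt18, -0.044 to 0.21 for Meg3, -0.58 to 0.36 for Fgf8, -0.17 to 0.0089 for Rpl41, -0.16 to 0.11 for Dnmt3b and -1.18 to 0.16 for T.

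No paired analysis was possible because the line names carry no replicate number shared between the groups. Depth limits genes of 1 or 2 reads, such as Gm12238.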
